A study of Mus musculus with 4 samples.

Results

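The sites described here were polyA sites that 1 cTag-PAPERCLIP library recovered repeatedly and the others did not recover at all. A site was included when exactly 1 of 4 CA1 neuropil libraries held at least 3 tags there and each of the other libraries held 0. The rule took in 191 of the 9297 listed sites (2.05%), with 1165 of 34672 tags (3.36%). They carried 191 different gene names and lay on 20 chromosomes. The sites were chosen by their tag counts, so the counts below are a description and were not tested.

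The 4 libraries were replicates 1 to 4 of a single group. All came from adult C57BL/6 mice of the genotype Camk2a-Cre x Pabpc1-cTag, and no other genotype or treatment was analysed here. In these animals the Camk2a promoter drives Cre in excitatory forebrain neurons, where Cre adds GFP to Pabpc1, a poly(A)-binding protein. Slices of hippocampus were crosslinked with ultraviolet light, the CA1 neuropil was cut out by hand, and RNA bound to tagged Pabpc1 was purified through GFP. Neuropil holds the dendrites of the pyramidal neurons together with axons, glia and vessels. Mice were pooled within each replicate, so the spread between replicates is a spread between pools and libraries rather than between animals.

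PolyA-binding protein coats the poly(A) tail, and fragments crosslinked to it therefore mark the 3′ ends of mRNAs. An mRNA 3′ end is set by a polyA signal, most often AATAAA or ATTAAA, which recruits the cleavage machinery a short distance downstream. Bc1 is a short noncoding RNA of rodent neurons that is abundant in dendrites and has an A-rich stretch that poly(A)-binding protein can bind. The genome also carries many copies of the related ID repeat family, which share the 5′ part of the Bc1 sequence.

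The libraries differed in depth. Replicates 1 to 4 held 16017, 6609, 5947 and 6099 tags (8668 ± 4908, SD, n = 4). A count of 0 in them allows a share of up to 0.0187%, 0.0454%, 0.0504% and 0.0492% of tags, respectively. These limits and the intervals below are 95% Wilson intervals or limits of 3 tags, and they cover counting error only, since PCR copies of a fragment are not separate molecules.

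The following 30-base windows show the 2 kinds of sequence that made up most of the set. The windows were read 5′ to 3′ on the strand of the site from the RefSeq GRCm38.p6 genome, with the listed position as base 16 of 30. The first 6 are the Bc1-like sites with the most tags in replicate 1 and in replicate 2, and capitals mark bases that lie in 12-base words of the first 74 bases of Bc1.
Mir5104, chr10:8778592-8778621, plus strand, replicate 2: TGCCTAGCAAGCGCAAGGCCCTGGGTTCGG
Cblb, chr16:53153410-53153439, plus strand, replicate 2: GCAAGCGCAAGGCCCTGGtttcggtcctca
Tsn, chr1:114047459-114047488, minus strand, replicate 2: gtAAGGCCCTGGGTTCGGTCCTCcgctctg
2510009E07Rik, chr16:21509780-21509809, minus strand, replicate 1: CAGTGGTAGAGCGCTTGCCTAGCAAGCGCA
A330008L17Rik, chr8:102566783-102566812, plus strand, replicate 1: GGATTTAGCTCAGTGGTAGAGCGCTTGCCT
Mir5131, chr14:45570370-45570399, minus strand, replicate 1: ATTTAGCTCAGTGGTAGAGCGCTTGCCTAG

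In the next windows, capitals mark the polyA signal. They are 3′UTR sites with a signal in the window and the highest counts of this kind in their replicate, and the 4 from replicate 2 belong to the myeloid genes described below. Kcnk9 shared its count with other sites of replicate 4.
Drap1, chr19:5422821-5422850, minus strand, replicate 1: aggtgggattgttcttaaatttATTAAAaa
Trim2, chr3:84160449-84160478, minus strand, replicate 1: tctcagatcattatAATAAAgcttgttctc
Camp, chr9:109847385-109847414, minus strand, replicate 2: tctggattcctaaaatAATAAActtggtaa
S100a8, chr3:90670002-90670031, plus strand, replicate 2: tgtctacagAATAAAgtcatcatatctcag
Lcn2, chr2:32384641-32384670, minus strand, replicate 2: gcgtcccctttctgctgAATAAAtacatgc
Chil3, chr3:106147558-106147587, minus strand, replicate 2: tcttgctctcacAATAAAttccacattcat
Cacng4, chr11:107732358-107732387, minus strand, replicate 3: tttaatgaAATAAAaacatttttaaaatgt
Kcnk9, chr15:72501879-72501908, minus strand, replicate 4: ttttttttttttttaATTAAAgtctctggc

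Replicates 1 to 4 contributed 82, 50, 30 and 29 of the single-library sites (47.8 ± 24.8, SD, n = 4). Of all sites with at least 3 tags in the replicate, these were 9.94% of 825, 10.9% of 457, 8.29% of 362 and 6.22% of 466. The deepest library thus gave the most sites but not the highest share. Tags at them amounted to 379, 583, 103 and 100, or 2.37%, 8.82%, 1.73% and 1.64% of each library (3.64% ± 3.47, SD, n = 4). Replicate 2 was far above the rest, and without it the mean was 1.91% ± 0.396 (n = 3).

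Most of the sites lay close to the threshold. The median was 3, 4, 3 and 3 tags in replicates 1 to 4, and 50, 21, 23 and 18 sites had exactly 3 tags. Sites with at least 10 tags numbered 3 in replicate 1, 12 in replicate 2 and 0 in both other libraries. The highest counts were 57, 239, 7 and 5 tags, so high counts occurred in replicates 1 and 2 alone. Just outside the rule lay sites with 2 tags in a single library, of which there were 255, 69, 171 and 106. A further 1988, 888, 1381 and 1065 sites had 1 tag in a single library.

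Depth limits how much an absence says. For scale, if a site had equal shares everywhere, 3 tags in replicate 1 would correspond to 3.49 tags in the other libraries together, and 3 tags in replicates 2, 3 or 4 would correspond to 12.7, 14.5 or 14.1 tags. These figures describe depth alone. Since the sites were selected for their 0 counts, no difference between libraries was tested at any single site.

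**Figure D1:**
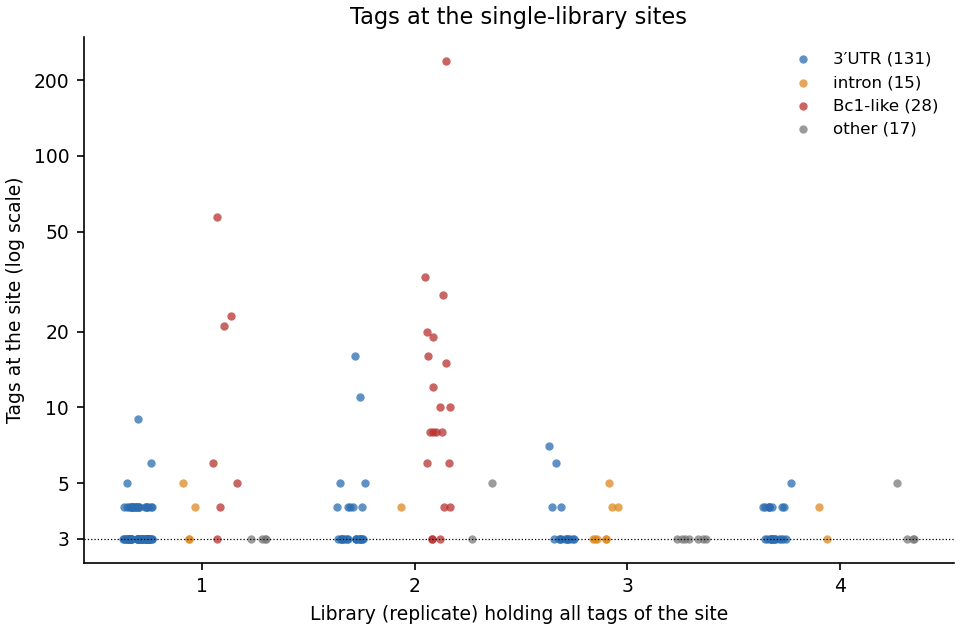
Tags at each of the 191 single-library sites (y axis, log scale), by the replicate that held all of them (x axis), coloured by location, with a dotted line at the minimum of 3 tags. Replicate 2 has Bc1-like sites (red) up to 239 tags, and replicates 3 and 4 have no site above 7 and 5 tags.

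The sites with the highest counts resembled Bc1. To find them, the 5′ 74 bases of the Bc1 gene (chr7:144914470-144914637, plus strand, GENCODE vM21) were split into 63 overlapping words of 12 bases. Sites with 10 or more of these words within 75 bases on either side are named Bc1-like here. Of the 191 sites, 28 were Bc1-like, against 112 of all annotated sites (1.21%). They comprised 7 sites of replicate 1, 21 of replicate 2 and 0 of replicates 3 and 4. They held 119 of the 379 single-library tags of replicate 1 (31.4%) and 463 of the 583 of replicate 2 (79.4%).

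The leading site, named Mir5104 in the table, had 0, 239, 0 and 0 tags in replicates 1 to 4, which was 3.62% of replicate 2 (95% interval 3.19% to 4.09%). It lay between genes, 942 kb beyond the 3′ end of the microRNA gene whose name it bears. The name therefore does not state which transcript was bound. The sites named Cblb and Tsn followed with 0, 33, 0 and 0 tags and 0, 28, 0 and 0 tags, and lay 945 kb and 4247 kb beyond those genes.

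Aox2, an aldehyde oxidase gene, held its site in an intron, with 0, 20, 0 and 0 tags. Its 30-base window was letter for letter that of Mir5104 and occurs 42 times in the genome. The site named Akr7a5 had 0, 19, 0 and 0 tags and lay 4.98 kb past the gene, and the site named Cystm1 had 0, 16, 0 and 0 tags. In replicate 1 the site named 2510009E07Rik had 57, 0, 0 and 0 tags, 139 kb past the gene end. Those named A330008L17Rik, Mir5131 and Cbx2 had 23, 21 and 6 tags in replicate 1 and 0 elsewhere, and all of them lay between genes.

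The choice of sites by Bc1 words goes with repeat sequence, so the following describes the 28 sites and sets them beside other Bc1-like sites. All 28 lay wholly in soft-masked repeat sequence, 23 between genes, 5 in introns and 0 in a 3′UTR. A single one had a polyA signal within 50 bases. The 30-base window of 21 of them had more than 1 exact copy in the genome (6.17% of all annotated sites), with a median over the 28 of 41 copies and a maximum of 155. The other 84 Bc1-like sites were similar, with 81 wholly soft-masked, 54 with more than 1 copy and 82 outside a 3′UTR. The 28 single-library sites fell on 15 chromosomes. How the authors placed tags that match several positions was not stated for this table, so these counts do not locate the RNA that was bound.

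Bc1-like sequence was tagged in every library. Sites tagged in more than 1 library, at any count, held 5126 of 5265, 273 of 777, 152 of 154 and 126 of 126 such tags in replicates 1 to 4. Bc1-like sites together took 32.9%, 11.8%, 2.59% and 2.07% of tags in replicates 1 to 4. In replicates 1, 3 and 4 a site in an intron of Hdac8, which encodes a histone deacetylase, led them with 4030, 134 and 99 tags, and replicate 2 had 1 tag there. The site inside the Bc1 gene itself had 755, 0, 6 and 12 tags. Replicate 2 was thus the library with the fewest tags at both of these shared sites, and 59.6% of its Bc1-like tags lay at single-library sites. In replicate 1 that share was 2.26%. The part that alignment played in these placements was not tested.

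Replicates 1 and 2 also differed in the part of Bc1 that their single-library sites matched. Counted from the 5′ end of Bc1, the 7 sites of replicate 1 fell at bases 24 to 60 with a median of 28, and the 21 sites of replicate 2 at bases 46 to 75 with a median of 61. Counted by tags rather than sites, the median lay closer together, at base 34 in replicate 1 and base 49 in replicate 2. In the windows above, those of replicate 1 accordingly begin earlier in the shared sequence than those of replicate 2. Over all Bc1-like sites the tags had their median at base 50, 51, 50 and 50 in the 4 libraries. In replicates 1, 3 and 4 that median is simply the position of the Hdac8 site, which holds 4030 of 5265, 134 of 154 and 99 of 126 Bc1-like tags. The difference among the single-library sites was not tested, since all of these sites come from only 2 libraries.

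**Figure D2:**
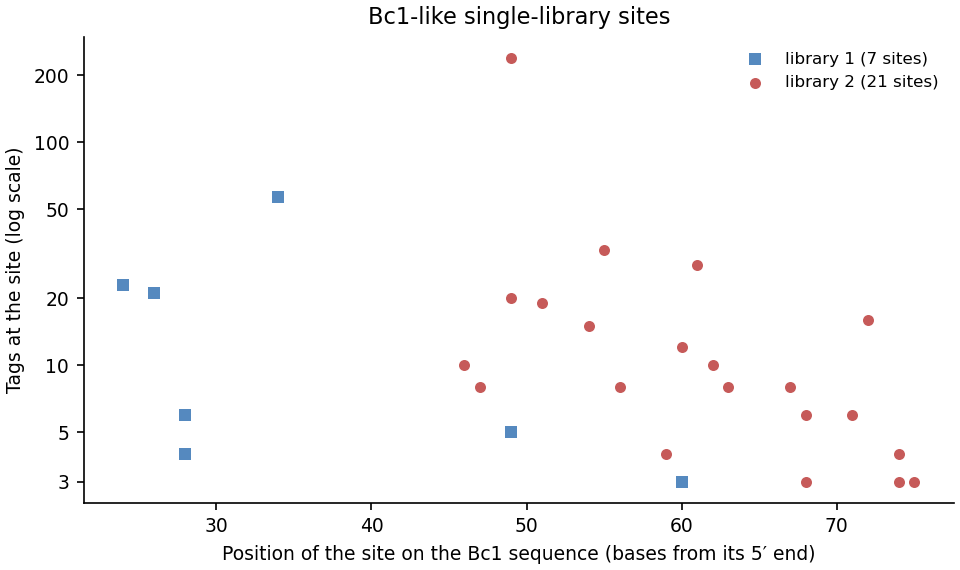
Tags (y axis, log scale) at the 28 Bc1-like single-library sites against their position on Bc1 in bases from its 5′ end (x axis), for replicate 1 (blue squares, 7 sites) and replicate 2 (red circles, 21 sites). Sites of replicate 1 have a median position of 28 and sites of replicate 2 a median of 61.

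Most of the remaining 163 sites lay in 3′UTRs, and replicate 3 was the exception described further on. Replicates 1 to 4 had 75, 29, 30 and 29 of them, with 260, 120, 103 and 100 tags. Their share of tags was nearly equal between libraries, at 1.62%, 1.82%, 1.73% and 1.64% (1.70% ± 0.0918, SD, n = 4), and their highest counts were 9, 16, 7 and 5 tags. By GENCODE vM21 annotation 131 lay in a 3′UTR (80.4%, against 76.5% of all annotated sites), 15 in an intron (9.20% against 5.30%), 15 between genes (9.20% against 15.3%) and 2 in a noncoding exon. A polyA signal lay within 50 bases of 125 of them (76.7%), against 78.1% of all annotated sites. Of the 131 in a 3′UTR, 114 (87.0%) had the signal, and of the 32 elsewhere 11 had it.

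The 3′UTR sites sat at annotated gene ends more often than at internal positions. Of the 131, 80 (61.1%) were within 100 bases of the end of the gene they are named for, all upstream of it, with a median of 24 bases upstream (listed as -24). Sites with at least 3 tags in a library and tags in another, called recurring sites here, had 654 of 995 (65.7%) in that range. A further 26 of the single-library 3′UTR sites lay more than 1000 bases upstream of the gene end. Examples are sites of Qk at 7621 bases and Celf1 at 4323 bases upstream (-7621 and -4323).

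Signals lay close to the listed position in both kinds of site, with a lower share at single-library sites. The nearest signal began within 10 bases of the listed position at 109 of the 163 sites (66.9%) and at 839 of 1109 recurring sites that were not Bc1-like (75.7%), with a median start of 0 bases in both. By replicate the shares among single-library sites were 72%, 79.3%, 36.7% and 72.4%. Replicate 3 was the low one, and the pooled difference was not tested. The windows above show such signals, for example at Trim2, where it starts 1 base before the listed base, and Camp, where it starts 1 base after it.

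**Figure D3:**
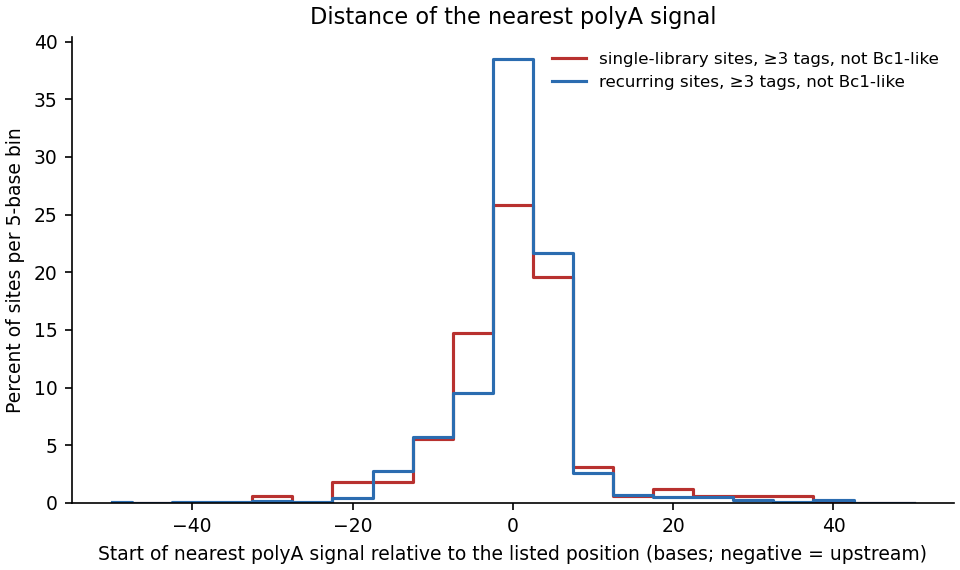
Distance from the listed position to the start of the nearest AATAAA or ATTAAA (x axis, bases, negative is upstream) as a percentage of sites per 5-base bin (y axis), for the 163 single-library (red) and the 1109 recurring (blue) sites that are not Bc1-like. Both peak at 0, and 66.9% of single-library and 75.7% of recurring sites have the signal start within 10 bases.

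Whether single-library sites differed from recurring sites was compared within each library, which keeps depth and preparation the same on both sides. Recurring sites numbered 743, 407, 332 and 437 in replicates 1 to 4. Over the 4 libraries a polyA signal was found at 62.8% ± 16.9 of single-library and 82.9% ± 2.99 of recurring sites (SD, n = 4). The difference was -20.1 percentage points ± 15.7 and was below 0 in 4 of 4 libraries. It depended on which bases and sites were counted. It was -0.317 points (exact permutation p = 0.875) when only the 50 bases upstream were searched. That search counted only signals ending at or before the listed base. The nearest signal started at a median of 0 bases in both sets without Bc1-like sites, so the upstream search left out many signals. Without Bc1-like sites the difference was -11.0 points (exact permutation p = 0.25), and replicate 2 turned to 1.99. The exact sign-flip permutation test over the 4 libraries, two-sided, gave p = 0.13, the smallest it can give (2 of 16 sign assignments), and 0.281 after Benjamini-Hochberg adjustment over 9 comparisons. No comparison could therefore reach the usual threshold in this design.

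The 3′UTR and intron shares had the same order in every library. Single-library sites lay in a 3′UTR in 65.8% ± 17.1 and recurring sites in 87.5% ± 5.81 of cases, a difference of -21.7 points ± 15.6 (SD, n = 4, exact permutation p = 0.13, adjusted 0.281). Introns held 12.6% ± 9.84 against 2.06% ± 1.45, higher in 4 of 4 libraries (difference 10.5 points ± 8.96, exact permutation p = 0.13, adjusted 0.281). Windows with more than 1 exact copy made up 14.8% ± 10.4 against 5.93% ± 1.64, also higher in 4 of 4 (difference 8.84 points ± 8.83, exact permutation p = 0.13, adjusted 0.281). Without Bc1-like sites that last difference was 1.77 points (exact permutation p = 0.375), and replicate 2 turned to -0.922. The differences in 3′UTR and intron location were then -12.1 and 8.92 points. Leaving out replicate 3 instead put the intron difference at 6.38 points. Each of the mean differences over all sites was about as large as the spread between libraries.

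The other features did not run one way. Sites between genes were more frequent among single-library sites in 3 of 4 libraries (difference 11.0 points ± 12.3, exact permutation p = 0.25, adjusted 0.450). That difference was 2.81 points without Bc1-like sites and 5.28 without replicate 2. The A content of the 30 bases downstream was 37.9% against 38.8%, with 2 libraries higher and 2 lower (difference -0.89 points ± 3.85, exact permutation p = 0.750, adjusted 0.844). It depended on the window. The difference was -7.81 points over 10 bases downstream (exact permutation p = 0.25). At 25 to 54 bases downstream, a window chosen after seeing the data, it was 5.86 points (exact permutation p = 0.13). Bc1-like sequence was more frequent in replicates 1 and 2 and less frequent in replicates 3 and 4 (difference 10.6 points ± 18.3, exact permutation p = 0.500, adjusted 0.643). Without replicate 2 that difference was 1.58 points. Another listed site within 100 bases on the same strand with tags in a different library was rare in both sets, at 0.305% and 0.119%.

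Many of the gene names had tags in other libraries at another site. Another site of the same name had a tag in a different library for 35.4%, 26%, 53.3% and 44.8% of the single-library sites (39.9% ± 11.8, SD, n = 4), against 36.0% ± 4.84 of recurring sites (difference 3.85 points ± 9.29, exact permutation p = 0.500, adjusted 0.643). The difference was 7.85 points without replicate 2, 0.311 without replicate 3, 0.558 without Bc1-like sites and 1.87 by the annotated gene at the site. A shared name is not always a shared gene, since sites such as those of Cblb and Tsn lay far from the gene named.

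**Figure D4:**
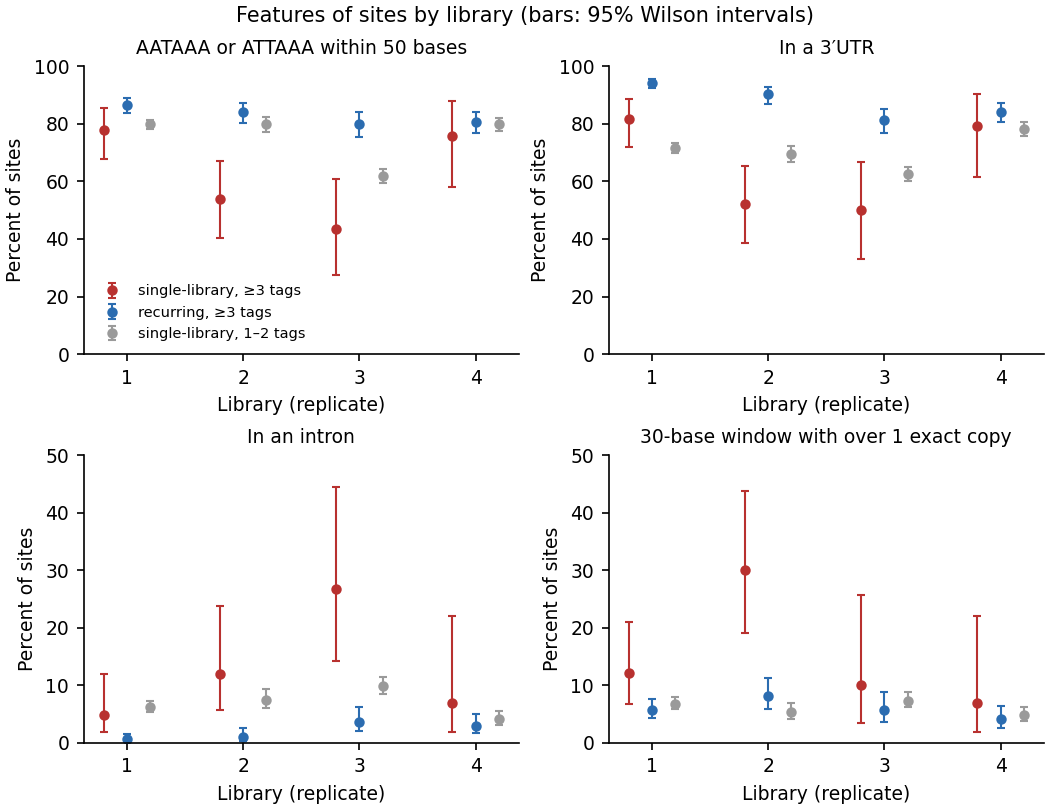
Percentage of sites (y axis) with each of 4 features in replicates 1 to 4 (x axis), for single-library sites with at least 3 tags (red), recurring sites (blue) and single-library sites with 1 or 2 tags (grey), with 95% Wilson intervals. Red points lie below blue in the upper panels and above blue in the lower panels in all 4 libraries, and replicates 2 and 3 are farthest from blue for the polyA signal.

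The libraries farthest from their recurring sites were replicates 2 and 3. A polyA signal was present at 78.0%, 54%, 43.3% and 75.9% of the single-library sites of replicates 1 to 4, and a 3′UTR location at 81.7%, 52%, 50% and 79.3%. Without Bc1-like sites, replicate 2 moved up to 89.7% for both, against 87.7% with a signal and 93.8% in a 3′UTR at its recurring sites. Replicate 3 has no Bc1-like site in the set and stayed at 43.3% and 50%, against 80.6% with a signal at its recurring sites. Its single-library sites with 1 or 2 tags were also the lowest of the 4 libraries, at 61.9% against 79.8% to 79.9%.

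Replicate 1 gave mostly 3′UTR sites of low count. Drap1, a subunit of a transcriptional corepressor, had 9, 0, 0 and 0 tags 30 bases before its annotated end (-30). Trim2, a ubiquitin ligase of neurons, had 6, 0, 0 and 0 tags, and Anks1b, a protein of the postsynaptic density, had 5, 0, 0 and 0. Xrcc6, which encodes a DNA end-binding repair protein, had 5, 0, 0 and 0 tags at an intronic site with no signal. Of these genes, Anks1b had 5, 0, 2 and 2 tags at its other sites, and Drap1 and Trim2 had 1 tag each, in replicate 1.

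Replicate 2 had a group of genes expressed in neutrophils and other myeloid blood cells. Camp, an antimicrobial cathelicidin, had 0, 16, 0 and 0 tags and was the highest of its 29 sites that were not Bc1-like. S100a8, a calcium-binding protein abundant in neutrophils, had 0, 11, 0 and 0. Lcn2, a secreted siderophore-binding protein of neutrophil granules, and Chil3, a chitinase-like protein of myeloid cells, had 0, 5, 0 and 0 each. Ngp, a neutrophil granule protein, had 0, 4, 0 and 0, and Lyz2, the lysozyme of myeloid cells, and Wfdc21 had 0, 3, 0 and 0 each.

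All 7 of these sites lay in a 3′UTR, 17 to 28 bases before the annotated gene end, and had a polyA signal. None of the 7 genes had a tag at any other listed site. On a list of 24 neutrophil and myeloid genes drawn up after these values were seen, 13 genes had 14 listed sites, of which 7 were single-library sites. The list is therefore a description and supports nothing by itself. Its tags numbered 3, 68, 3 and 0, or 0.0187%, 1.03%, 0.0504% and 0% of replicates 1 to 4, where 0 tags in replicate 4 allows up to 0.0492%.

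S100a9, the partner of S100a8, missed the rule by a single tag, with 0, 14, 1 and 0 tags at its main site, and Ltf, the lactoferrin gene, had 0, 4, 1 and 0. Lists of other non-neuronal cells had their highest shares in different libraries. Blood and vessel markers took 0.0312%, 0.560%, 1.28% and 0.148% of tags, highest in replicate 3, with 4 of 8 genes listed. Microglia markers had 3, 0, 1 and 0 tags over the 2 of 8 genes that were listed. The oligodendrocyte marker list took 0.287%, 0.545%, 0.185% and 0.131%, highest in replicate 2, and the astrocyte list 0.325%, 0.151%, 0.118% and 0.0984%, highest in replicate 1. Fewer cells of a type and less RNA per cell cannot be told apart in such pooled material, and the cells that gave these tags in replicate 2 were not tested for. The tag depends on Camk2a-Cre and RNA was purified through GFP, but how far this removed RNA of untagged cells was not tested.

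**Figure D5:**
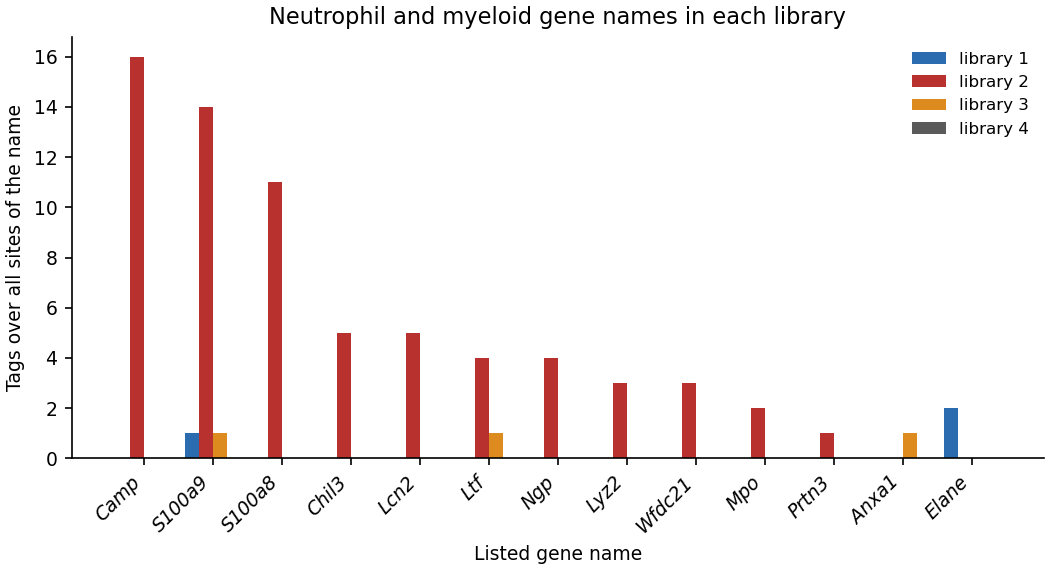
Tags over all sites of each neutrophil and myeloid gene name with a listed site (x axis) in replicates 1 to 4 (y axis, bars from 0). Camp, S100a8 and S100a9 have 16, 11 and 14 tags in replicate 2, and no other library has more than 2 tags at any of these names.

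Replicate 3 had 8 of its 30 single-library sites in introns (26.7%), against 4.88%, 12% and 6.90% in replicates 1, 2 and 4. Its highest site was nonetheless a regular 3′ end, that of Cacng4, an auxiliary subunit of AMPA receptors, with 0, 0, 7 and 0 tags. Runx1t1, a transcriptional corepressor, had 0, 0, 6 and 0 tags in its 3′UTR. Fgf14, an intracellular regulator of neuronal sodium channels, had 0, 0, 5 and 0 tags in an intron, 546 kb before the gene end. Nrxn3, a synaptic adhesion molecule, and Efr3a, a plasma membrane scaffold for a lipid kinase, had 0, 0, 4 and 0 tags each, also in introns. Rnf146, a ubiquitin ligase, and U2af2, a splicing factor, had the same counts at 3′UTR sites with a polyA signal. None of the 3 intronic sites had a polyA signal within 50 bases.

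An intronic site of replicate 3 without a signal, in Lepr, the leptin receptor gene, is shown for the word ACAGAGTGAGAC, in capitals, which was noticed after the sequences were read.
Lepr, chr4:101734376-101734405, plus strand, replicate 3: tccagcctggactACAGAGTGAGACcctgt

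The Lepr site had 0, 0, 3 and 0 tags. The word occurred within 75 bases of 23 of the 9294 annotated sites (0.247%), always on the strand of the site and at 0 sites on the other strand. Those 23 sites held 1, 1, 154 and 198 tags, or 0.00624%, 0.0151%, 2.59% and 3.25% of replicates 1 to 4. Of the 23, 22 had tags in replicate 3, 15 in replicate 4 and 1 in each of replicates 1 and 2. Only 1 of them lay in a 3′UTR. Tags next to this word were thus found almost wholly in replicates 3 and 4. The word was the longest stretch shared by the windows of Lepr and another single-library site of replicate 3. Those 2 of the 23 sites, and their tags in replicate 3, were therefore fixed by the choice of word. Whether the tags next to the word came from mouse transcripts of the listed loci was not tested. The same holds for the intronic and signal-less sites of replicate 3.

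Replicate 4 had the lowest counts. The site named Tomm70a, after a mitochondrial import receptor, had 0, 0, 0 and 5 tags but lay between genes, 151 kb past that gene. Rbm17, a splicing factor, had 0, 0, 0 and 5 tags in its 3′UTR, without AATAAA or ATTAAA nearby. A further 9 sites had 0, 0, 0 and 4 tags each. In an intron lay that of Kcnma1, a calcium-activated potassium channel. In 3′UTRs lay those of Kcnk9, a leak potassium channel, Plcb1, a phospholipase C, Bcl2l1, an inhibitor of apoptosis, Ptprt, a receptor tyrosine phosphatase, Actb, Blcap, Pdik1l and Ubfd1.

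Noncoding exons held 2 of the sites, both in Y RNA genes. Y RNAs are small noncoding RNAs bound by the Ro protein. The site named Cul1 lay in Rny3, with 0, 0, 3 and 0 tags, and the site named Mir704 lay in Rny1, with 0, 0, 0 and 3. Neither had a polyA signal within 50 bases, and no other listed site fell in these genes. In all, 8 of the 191 sites were named for a microRNA, 145 lay inside the vM21 gene of their own name, and 41 lay over 10000 bases away from it. No share over all listed sites is given for these counts, so they do not set the single-library sites apart.

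Gene lists for dendrites and for other cell types held few of the sites. The share over all listed sites, 2.05%, is the background for each count. Postsynaptic scaffolds and glutamate receptors had 1 of 53 sites, calcium and calmodulin signalling 1 of 52, and cytoskeleton and motors 1 of 43. Presynaptic vesicle machinery had 0 of 24, translation and ribosome 0 of 14, mitochondria and energy 0 of 25, chromatin and transcription regulators 0 of 27, and pyramidal neuron markers 0 of 10. RNA-binding proteins had 3 of 52 (5.77%), all in replicate 1.

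The members of these lists showed other sites of the same gene in use elsewhere. Grin2b, a subunit of NMDA receptors, had 0, 0, 0 and 3 tags 16 bases before its annotated end (-16), and its other sites held 1, 0, 1 and 1. Actb, the cytoplasmic beta-actin, had 0, 0, 0 and 4 tags at 495 bases upstream of its end (-495), while its other sites held 6, 5, 22 and 18 tags. Ppp3ca, the catalytic subunit of calcineurin, had 4, 0, 0 and 0 tags at a site among 6 in its 3′UTR, and the others summed to 20, 1, 7 and 17. For Actb and Ppp3ca the gene was thus recovered in all 4 libraries and a minor site in 1.

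Among RNA-binding proteins, Celf1, Celf4 and Qk each had 4, 0, 0 and 0 tags in their 3′UTRs. The other sites held 0, 1, 4 and 2 tags for Celf1, 8, 2, 1 and 0 for Celf4, and 0, 0, 1 and 0 for Qk. All of these proteins bind mRNA and regulate its splicing or stability.

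Markers of other cells gave few sites. Aqp4, the water channel of astrocytes, had 4, 0, 0 and 0 tags, and was 1 of 17 astrocyte marker sites. Interneuron markers had 0 of 7, microglia markers 0 of 2 and blood and vessel markers 0 of 4. No list other than the one drawn up after the values were seen had more than 3.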

How the data were processed

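The authors deposited tag counts, whole numbers that were not normalized, at polyA sites in 4 CA1 neuropil cTag-PAPERCLIP libraries. The submitters' processing notes name cutadapt, Novoalign and mm10, and the study's methods name the CTK package for calling sites. Collapsing of duplicate tags and treatment of tags matching several places were not given in the sources used here. Here sites were annotated with GENCODE vM21 and RefSeq GRCm38.p6 (9294 on chromosomes, 0 past a chromosome end, 3 on other sequences left out). Shares were compared within libraries by an exact two-sided sign-flip permutation test over 4 libraries with Benjamini-Hochberg adjustment, which was tested on simulated data. Such p-values measure only the spread between these samples. The sites named were the 5 with most tags per library (ties by chromosome and position, with tied sites also named), the 10 with most overall and those on the gene lists, and other names were chosen after their values were seen. The single-library sites and the lists were chosen with earlier results of these data known. Alternatives changed tag minimums, windows, merging distance, Bc1-like and soft-masked sites, and left out each replicate. Python 3.11.15, numpy 2.4.6, pandas 2.3.3 and matplotlib 3.10.9 were used. A marker gene and a sequence window are not reported here.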

Additional observations from a re-analysis of the deposited data

Results flagged for a closer look

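Of 24 quantities with 1 value in each of the 4 libraries, 3 had a library set far apart from the others, measured as its gap to the nearest library divided by the whole range. Chance sets apart about 1 in 20 such groups, or 1.20 of 24. Counts that the selection of sites had used, and the neutrophil and myeloid list drawn up after the values were seen, were left out of this check after it had first been run with them. The gap was 0.934 of the range for tags per library, where replicate 1 was highest with 16017. It was 1 for single-library sites with another listed site within 100 bases that had tags in a different library. Only replicate 1 had such a case, at 1 of its 82 sites. The gap was 0.908 for the percentage of tags in the list of chromatin and transcription regulators. There replicate 1 had 25.3%, of which the Bc1-like site in Hdac8 alone held 4030 tags.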

How the results depend on the processing

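Of 88 recomputed values of the 9 feature comparisons, 81 kept their direction, and with 4 libraries none could pass the threshold. Several sizes moved far. The difference in polyA signals went from -20.1 points to -0.317 with a search upstream only, -11.0 without Bc1-like sites and -47.2 with at least 5 tags. With at least 5 tags the differences in 3′UTRs, sites between genes, windows with more than 1 copy and Bc1-like sequence went from -21.7 to -41.9, 11.0 to 31.1, 8.84 to 25.8 and 10.6 to 29.7, and that in shared gene names from 3.85 to 11.1. With at least 2 tags those in introns, windows with more than 1 copy and Bc1-like sequence went from 10.5 to 5.21, 8.84 to 4.41 and 10.6 to 5.09, and that in shared gene names to 1.41. With 3 to 5 tags for both sets, a setting chosen after seeing the data, Bc1-like sequence was at 3.69 and sites between genes at 6.83. Without Bc1-like sites those in 3′UTRs, sites between genes and windows with more than 1 copy went from -21.7 to -12.1, 11.0 to 2.81 and 8.84 to 1.77. The direction turned for 2 features whose main differences were small. For A content (-0.892 points) the difference was 0.149 with at least 2 tags, -4.88 with at least 5 tags, -7.81 over 10 bases downstream (exact permutation p = 0.25), 5.86 at 25 to 54 bases downstream (chosen after seeing the data, higher in 4 of 4 libraries, exact permutation p = 0.13), and -2.15 to 0.887 with 1 replicate left out. The other feature was a listed site within 100 bases with tags in a different library (0.186 points). Its difference was -0.152 with at least 5 tags and -0.323 with at least 2 tags. It was -4.09 within 1000 bases, and -0.158 to 0.330 with 1 replicate left out. The cause was not tested. The number of single-library sites was 792 with at least 2 tags and 35 with at least 5 tags, and the mean percentage of tags was 7.26% with at least 2 tags and 2.18% with at least 5. Leaving out 1 replicate left 36.3 to 54 sites per library and 1.91% to 4.31% of tags. Without replicate 2 the difference in Bc1-like sequence was 1.58 points against 10.6, that in windows with more than 1 copy 4.49, and that between genes 5.28. Without replicate 3 the difference in introns was 6.38 points against 10.5. Merging sites within 25 bases joined none. The Bc1-like comparison without Bc1-like sites was not run, since no value remains. No paired analysis was possible between groups because there was 1 group, and the differences above were taken within libraries.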
